A study of Mus musculus with 48 samples.

Results

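The chondroitin sulfate proteoglycans, tenascins and link proteins of the brain matrix were followed here as a list of 10 genes chosen by name: the lecticans Vcan, Ncan, Acan and Bcan, the tenascins Tnc and Tnr, the link proteins Hapln1 and Hapln4, and the transmembrane proteoglycans Cspg5 and Ptprz1. All 10 were found through their Ensembl identifiers among the 46983 genes of the count tables, and all 10 were among the 19970 genes with more than 10 counts over the libraries. Brain tissue of 3-month-old male C57Black/6 mice was sequenced from the 3′ end of polyadenylated RNA in 48 libraries. The control group was intact cortex (4 libraries). MCAO mice had the middle cerebral artery coagulated and cut through a hole drilled in the skull, and were sampled 3 h, 12 h, 24 h, 3 days or 7 days later (5 libraries each, and 4 at 24 h). Sham mice were sampled at the same times (4 libraries each). The labels do not describe their operation, and the study's methods, in a passage on earlier work, give sham surgery as the same operation with the artery left uncoagulated. No group carried a transgene or a drug treatment under study. By the study's methods, MCAO was done under isoflurane, and mice were given pentobarbital before the brain was taken. By the labels, the tissue taken after MCAO was the injured part of the cortex, lesion and spared tissue together, whereas the study's text speaks of most of the injured-side hemisphere, so how much tissue besides cortex each measured level covers is not known. Libraries held between 1522668 and 2826735 gene counts, with a median of 1935856.

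Lecticans are large secreted proteoglycans that bind hyaluronan through one end and tenascins through the other, and link proteins lock the bond to hyaluronan. Around many neurons, in particular the parvalbumin interneurons of the cortex, these molecules form dense coats called perineuronal nets, in which aggrecan (Acan), Hapln1, Hapln4 and tenascin-R (Tnr) are typical parts. After brain injury the same family is known as a component of the glial scar, where the sulfated chains hold back growing axons and bind receptors such as Ptprs and the Nogo receptor Rtn4r.

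Against sham mice, the members called after MCAO were Tnc at day 3 and Vcan at day 7 (the latter lost in several alternatives), and the 250 bases before their RefSeq starts (GRCm38.p6) are given to show what lies upstream of both. Capitals mark the letters GGGCGG (the GC box) and TATAAA (the TATA box) on either strand.
Tnc, chr4:64047016-64047265, minus strand: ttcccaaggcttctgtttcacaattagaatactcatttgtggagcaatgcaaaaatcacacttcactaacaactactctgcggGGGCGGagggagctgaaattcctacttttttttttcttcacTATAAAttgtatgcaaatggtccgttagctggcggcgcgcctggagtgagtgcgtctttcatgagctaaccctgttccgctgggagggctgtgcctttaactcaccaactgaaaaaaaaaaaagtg
Vcan, chr13:89742513-89742762, minus strand: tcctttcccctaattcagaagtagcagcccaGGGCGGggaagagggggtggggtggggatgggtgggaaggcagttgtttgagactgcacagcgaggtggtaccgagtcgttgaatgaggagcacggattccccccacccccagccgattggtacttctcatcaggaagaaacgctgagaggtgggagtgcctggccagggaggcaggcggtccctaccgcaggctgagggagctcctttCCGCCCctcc
The Vcan window was richer in G and C (62.4%) than the Tnc window (44.8%), with a median of 52.4% over the 32851 windows of the table. A second Tnc start, slightly downstream, had an overlapping window with 51.2% G and C and the same GGGCGG and TATAAA letters. The TATAAA letters stood 126 bases before the first Tnc start and 205 bases before the second, and are a match of letters only. A GC box stood in both the Tnc and the Vcan window, as in 32.7% of all windows, and the TATAAA letters stood in the Tnc window, as in 12.4% of all. Neither window held TGANTCA (the AP-1 motif, in 6.75% of all windows), TGACGTCA (the cyclic AMP element, in 1.55%) or TTCNNNGAA (the STAT motif, in 7.02%) on either strand, and no marked motif overlapped another. In all, 8 of the 10 members had an entry.

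The tissue label was checked against marker lists. Neuronal transcripts were abundant everywhere, led by Camk2a at a mean of 3406 CPM in the control group (CPM is the share of a library's gene counts times 1000000, with TMM scaling factors). The summed level of the striatal markers, led by Ppp1r1b, ranged from 134 to 3343 CPM between libraries, so that the samples differed in how much striatal RNA they held. The choroid plexus markers summed to 502 CPM in control replicate A and to at most 57.1 CPM in the other 47 libraries. MCAO day 3 replicate A stood nearer to the sham libraries than the other 4 MCAO libraries of that day, with reactive astrocyte markers at 259 CPM against 1250 to 2459 CPM, and MCAO day 7 replicate C stood apart by its fibroblast markers, 5512 CPM against 167 to 507 CPM. Member calls against sham or control that change without either library are given both ways.

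In the comparison of MCAO with sham mice at the same time, which sets occlusion against sham surgery at the same time, a gene was called when its adjusted p (edgeR quasi-likelihood test, Benjamini-Hochberg over the 19970 genes) was below 0.01 and its log2 fold change above 0.58 in size. No member was called at 3 h, 12 h or 24 h, where 0.11%, 0.411% and 0.0901% of all genes were. At day 3, 1 member of 10 was called (Tnc, higher), against 4.02% of all genes, and at day 7 again 1 of 10 (Vcan, higher), against 3.5% of all genes. With single members called, these counts say little of the family as a whole. The median log2 fold change of the 10 members was −0.18 at 3 h, −0.14 at 12 h, −0.12 at 24 h, −0.15 at day 3 and 0.29 at day 7, and the median of all genes tested was between 0 and 0.06 at each time. Since whole tissue was sequenced, fewer or more cells of a type and a changed RNA content per cell cannot be told apart in any of these values.

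**Figure D1:**
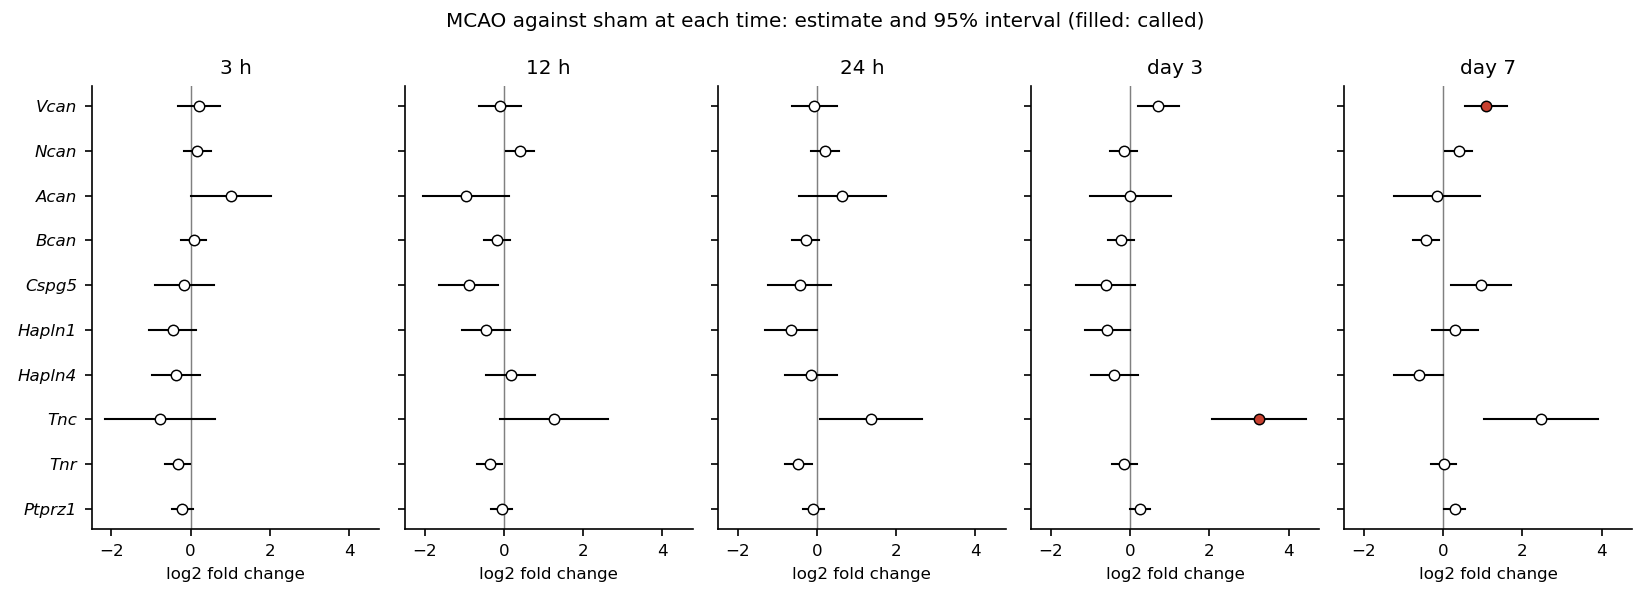
Log2 fold change of each member (rows) in MCAO against sham mice at each of the 5 times (panels), as circles with 95% intervals from edgeR, filled where the gene was called. The Tnc circle is filled at day 3 (3.25) and the Vcan circle at day 7 (1.07); most other intervals include 0 or lie close to it.

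Tnc encodes tenascin-C, a matrix glycoprotein of development that astrocytes and connective tissue cells make again after injury. It was scarce in the uninjured cortex, at 2.8, 3.9, 1.1 and 2.3 CPM in the 4 control libraries, and between 0 and 9.0 CPM over the 20 sham libraries (0 to 20 counts). At day 3 after MCAO it stood at 6.9, 23.5, 44.9, 38.1 and 78.4 CPM, against 4.7, 2.3, 7.5 and 1.4 CPM in sham mice. Of these MCAO libraries 4 lay above every sham library and replicate A lay within the sham range. The increase was 3.25 ± 0.59 on the log2 scale (SE, 95% interval 2.06 to 4.44, edgeR adjusted p = 0.000149), and 3.51 ± 0.55 (adjusted p = 9.85e-06) without replicate A.

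Other times gave smaller differences for Tnc. Its mean at 3 h was 2.6 CPM after MCAO and 4.2 CPM in sham mice, and at 12 h 6.3 and 2.7 CPM, neither called. At 24 h the MCAO libraries held 9.8, 6.5, 10.6 and 20.2 CPM against 3.6, 3.8, 1.8 and 8.4 CPM in sham mice, a log2 difference of 1.36 (95% interval 0.08 to 2.64, edgeR adjusted p = 0.53) between groups that overlapped in 1 MCAO library. At day 7 the values were 8.7, 9.2, 15.5, 6.7 and 6.3 CPM against 0.6, 3.3, 0 and 2.3 CPM. These groups did not overlap, and the difference of 2.47 ± 0.72 (edgeR adjusted p = 0.0212) missed the threshold. Groups without overlap were found for 3 of the 10 members at day 7 (Vcan, Tnc and, lower, Bcan) and for 10.5% of all genes. At day 3 they were found for 0 members and 7.14% of genes, at 24 h for 0 and 5.83%, at 12 h for 0 and 3.29%, and at 3 h for 1 member, Tnr, and 3.58%.

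**Figure D2:**
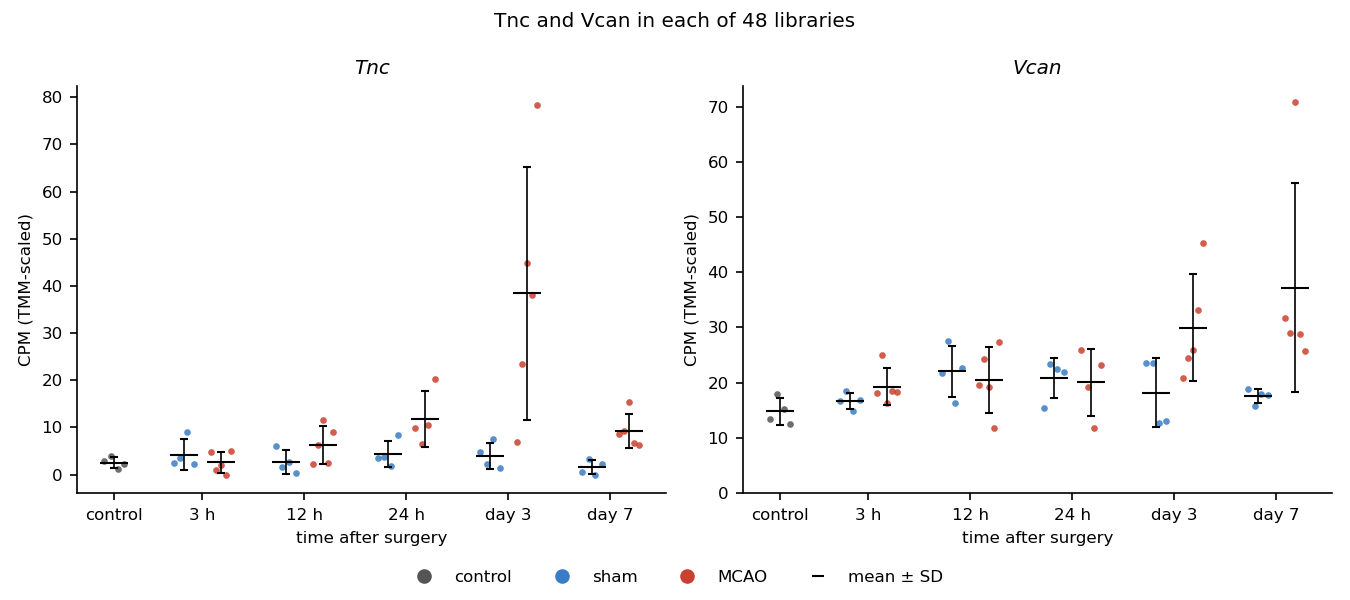
Tnc (left) and Vcan (right) in CPM, scaled with TMM factors, in each of the 48 libraries by group and time, with mean ± SD in black. Tnc reached 23.5 to 78.4 CPM in 4 of 5 MCAO libraries at day 3, and Vcan lay above the sham libraries of the same day in the 5 MCAO libraries of day 7, with 1 library at 70.8 CPM.

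Vcan encodes versican, a lectican made by oligodendrocyte precursors in the brain and by fibroblasts and other connective tissue cells elsewhere. In the control group it measured 13.4, 18.0, 15.2 and 12.6 CPM, the lowest mean of the 11 groups (14.8 ± 2.4 CPM, SD, n = 4). At day 7 after MCAO it measured 31.7, 29.0, 70.8, 28.8 and 25.7 CPM, and in sham mice 18.9, 15.9, 18.0 and 17.8 CPM. Every MCAO library stood above every sham library, and replicate C stood far above the other 4. The increase was 1.07 ± 0.26 on the log2 scale (95% interval 0.54 to 1.60, edgeR adjusted p = 0.00612). Without replicate C it was 0.71 ± 0.25 (adjusted p = 0.0814), below the threshold, though the 4 remaining libraries still lay above the sham range. The call was also lost without any 1 of the 4 sham libraries (adjusted p from 0.0142 to 0.0278), with a replicate block (0.0104) and with only the compared groups in the fit (0.0376).

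Day 3 showed a smaller difference for Vcan. The MCAO libraries held 20.8, 24.4, 26.0, 33.2 and 45.4 CPM against 23.6, 23.5, 12.6 and 13.1 CPM in sham mice, so that the groups overlapped in 1 MCAO library. The log2 difference was 0.71 ± 0.26 (95% interval 0.19 to 1.23, edgeR adjusted p = 0.0791). At 3 h, 12 h and 24 h it was between −0.10 and 0.21, with all 3 intervals inside −0.63 to 0.75.

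Markers of several cell types moved together with Tnc and Vcan. At day 3 all 6 reactive astrocyte markers were higher after MCAO (Gfap, their most abundant gene, among them), and the list summed to 259, 1250, 2459, 1878 and 2200 CPM against 67.5 to 108 CPM in sham mice. The MCAO library with the least Tnc, replicate A, was also the one with the least of these markers. Other lists also had higher means after MCAO at day 3. The microglia and macrophage list summed to 593, 1169, 2314, 1526 and 2058 CPM, again lowest in replicate A, against 241 to 339 CPM in sham mice. The endothelium list summed to 224, 381, 592, 330 and 554 CPM against 223 to 262 CPM, also lowest in replicate A. Its called genes were Pecam1 and Cdh5, the latter not called without sham replicate A, B or C or MCAO replicate E. The fibroblast list summed to 136, 359, 646, 92.8 and 1334 CPM against 73.1 to 137 CPM, highest in replicate E, the library with the most Tnc. It did not follow Tnc in replicate D, which lay within the sham range for this list, as replicate A did, but held 38.1 CPM of Tnc. The oligodendrocyte precursor list summed to 190, 362, 453, 458 and 449 CPM against 211 to 248 CPM, lowest in replicate A, with Olig1 and Sox10 called; each call was lost without any 1 of 7 of the 9 libraries. The fibroblast list, in which 5 of 6 genes were called at day 7 (Col1a1, Col1a2, Col3a1, Dcn and Pdgfrb; the first 3 without replicate C), then summed to 167, 185, 5512, 507 and 403 CPM against 43.3 to 91.0 CPM, and its highest library, replicate C, was the one with the most Vcan. The same library had the most microglia and macrophage markers (3068 CPM against 674 to 1070 CPM in the other 4) and the least neuronal (6363 against 9654 to 10212 CPM) and astrocyte markers (3471 against 4860 to 5139 CPM). Reactive astrocyte markers were still higher at day 7 for 5 of 6 genes (Serpina3n among them, except without sham replicate B, C or D), at 665 to 859 CPM against 78.9 to 99.2 CPM, with replicate C in the middle of that range. The oligodendrocyte precursor list, with 2 of 8 genes called at day 7 (Pdgfra and Lhfpl3; Lhfpl3 alone without replicate C, and neither without sham replicate D), summed to 287, 288, 283, 266 and 321 CPM against 137 to 215 CPM, with Olig1 as its most abundant gene and no outlying library. None of these lists had a gene at 0 in every library of a group. The part these cells have in the Tnc and Vcan values was not tested.

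**Figure D3:**
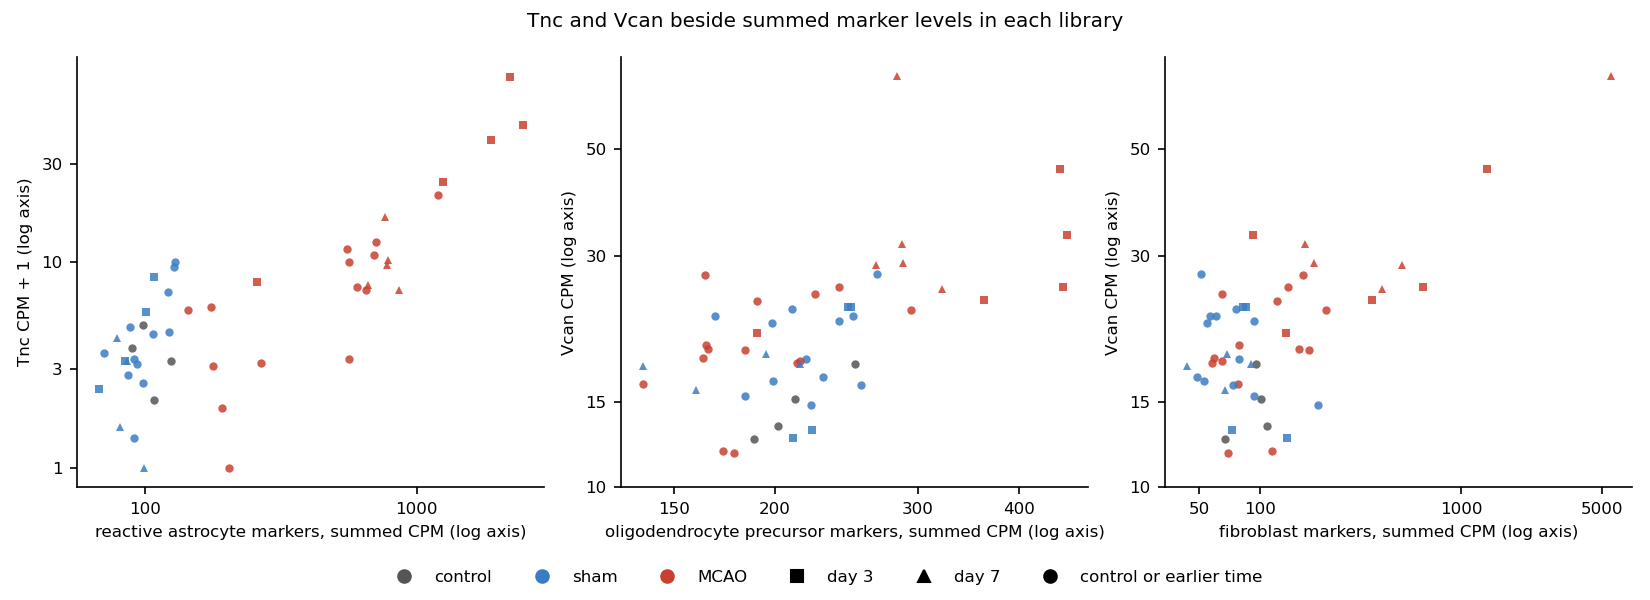
Each point is a library: Tnc CPM + 1 against the summed CPM of 6 reactive astrocyte markers (left), and Vcan CPM against the summed CPM of 8 oligodendrocyte precursor markers (middle) and of 6 fibroblast markers (right), all on log axes. The MCAO libraries of day 3 (squares) lie furthest up in the Tnc panel except 1, and the library with 5512 CPM of fibroblast markers is the one with 70.8 CPM of Vcan.

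Tnr encodes tenascin-R, made by oligodendrocytes and some interneurons and a cross-linker of perineuronal nets. Its mean after MCAO was below that of sham mice at the first 3 times, without overlap at 3 h and with overlap at 12 h and 24 h. At 3 h it measured 195.9, 167.3, 154.0, 192.1 and 197.3 CPM after MCAO and 242.4, 224.5, 215.1 and 224.0 CPM in sham mice. At 12 h it measured 140.9, 167.4, 97.0, 206.5 and 151.3 CPM against 206.7, 225.8, 173.4 and 173.8 CPM. At 24 h the values were 138.1, 115.4, 117.8 and 129.5 CPM against 169.2, 127.0, 211.0 and 187.2 CPM. The log2 differences were −0.32, −0.35 and −0.47 at 3 h, 12 h and 24 h, each with an interval below 0 and none called (edgeR adjusted p between 0.279 and 0.581), and −0.14 and 0.01 at days 3 and 7. The sham group of 3 h had the highest mean of the 11 groups (226.5 ± 11.4 CPM, SD, n = 4). The mean at 3 h after MCAO was 181.3 CPM, and that of the control group 185.2 CPM. The MCAO group of 24 h had the lowest mean of the 11 (125.2 ± 10.6 CPM, SD, n = 4), below the whole control range of 165.8 to 214.7 CPM. The oligodendrocyte and parvalbumin interneuron marker lists summed to means of 1394 and 625 CPM after MCAO at 12 h, against 2558 and 935 CPM in sham mice. The latter list holds Gad1, Gad2, Slc32a1 and Tac1 beside Pvalb, so its sum is not a level of parvalbumin interneurons alone. At 3 h (2670 and 963 against 2307 and 837 CPM) and 24 h (2445 and 912 against 2163 and 831 CPM) the means of both lists were higher after MCAO. At 24 h MCAO replicate D, the library with the most striatal markers (3343 CPM), held 4625 and 1419 CPM. The other MCAO libraries held 1114 to 2294 and 607 to 900 CPM, against 1647 to 2717 and 697 to 967 CPM in sham mice. The part of both lists in the Tnr values was not tested. Reads of Tnr may in part have been given to Gm37731, an annotated stretch on the same strand inside it, which held 935 counts over all libraries.

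Among the other lecticans, Ncan (neurocan, made by astrocytes and neurons) and Bcan (brevican, made by astrocytes and oligodendrocyte precursors) were plentiful. Bcan at day 7 measured 178.3, 223.9, 170.7, 206.8 and 204.8 CPM after MCAO and 243.2, 255.3, 236.0 and 331.7 CPM in sham mice, without overlap, a log2 difference of −0.44 ± 0.16 (edgeR adjusted p = 0.0762). Those sham libraries were themselves the highest group for Bcan (266.5 ± 44.1 CPM, SD, n = 4), above the control group at 210.2 ± 21.3 CPM, and MCAO day 7 differed from control by −0.09 (95% interval −0.42 to 0.23). The lowest group was MCAO day 3, at 190.6, 158.6, 120.4, 137.7 and 115.9 CPM. Of these, 4 lay below all control libraries, and the difference from control was −0.54 ± 0.16 (edgeR adjusted p = 0.0301). Without replicate A it was −0.66 (adjusted p = 0.00539), which would be called. The sham libraries of day 3 held 153.8, 173.6, 185.9 and 162.6 CPM and overlapped with the MCAO libraries. The means were 169.0 CPM in sham mice and 144.6 CPM after MCAO, a difference that was not called. The astrocyte list, led by Slc1a2, summed to 4751, 4455, 3338, 3531 and 3227 CPM in the same MCAO libraries. It summed to 4617 to 5015 CPM in the control group and 4659 to 5082 CPM in these sham libraries. Its part in the Bcan values was not tested.

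Ncan had no call. Its largest differences from sham were 0.41 at 12 h (95% interval 0.07 to 0.76) and 0.39 at day 7 (0.05 to 0.73). At 12 h the MCAO libraries held 286.3, 354.3, 335.4, 215.3 and 278.1 CPM against 191.0, 250.3, 176.0 and 266.5 CPM, and 4 of 5 lay above all sham libraries. The sham group of 12 h was the lowest of the 11 groups for Ncan, 221.0 ± 44.2 CPM (SD, n = 4), so that against the control group the same MCAO libraries differed by 0.04 (95% interval −0.30 to 0.38).

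Acan, the lectican that defines most perineuronal nets, was measured with 2 to 28 counts per library, and small differences were not detectable at that depth. At 3 h it measured 7.2, 9.9, 5.9, 5.2 and 12.8 CPM after MCAO against 6.7, 4.6, 1.3 and 3.3 CPM, a log2 difference of 1.01 with an interval from 0.01 to 2.02. At 12 h it measured 1.9, 1.5, 1.6, 2.4 and 5.4 CPM against 1.1, 2.1, 7.4 and 7.8 CPM, a difference of −0.95 (95% interval −2.04 to 0.13). Neither was called (edgeR adjusted p = 0.585 and 0.417).

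The link proteins showed no call. Hapln1 had 8 to 44 counts per library, and its level after MCAO was below that in sham mice by −0.45, −0.44, −0.65 and −0.58 on the log2 scale from 3 h to day 3, with edgeR adjusted p between 0.223 and 0.723, and above it by 0.30 at day 7. Hapln4 was furthest from both references at day 7, with 42.7, 17.3, 35.7, 26.9 and 17.5 CPM after MCAO, 36.6, 26.1, 60.0 and 49.7 CPM in sham mice and 80.9, 41.6, 46.3 and 49.1 CPM in the control group. Both differences were negative, −0.62 (95% interval −1.25 to 0.01) against sham and −0.96 (−1.58 to −0.34, edgeR adjusted p = 0.0742) against control. Of the parvalbumin interneuron list, Pvalb was called at day 7 (log2 fold change −2.36, and −2.05, not called, without sham replicate D) and the other 7 genes were not at any time, among them Kcnc1, the most abundant of the list.

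**Figure D4:**
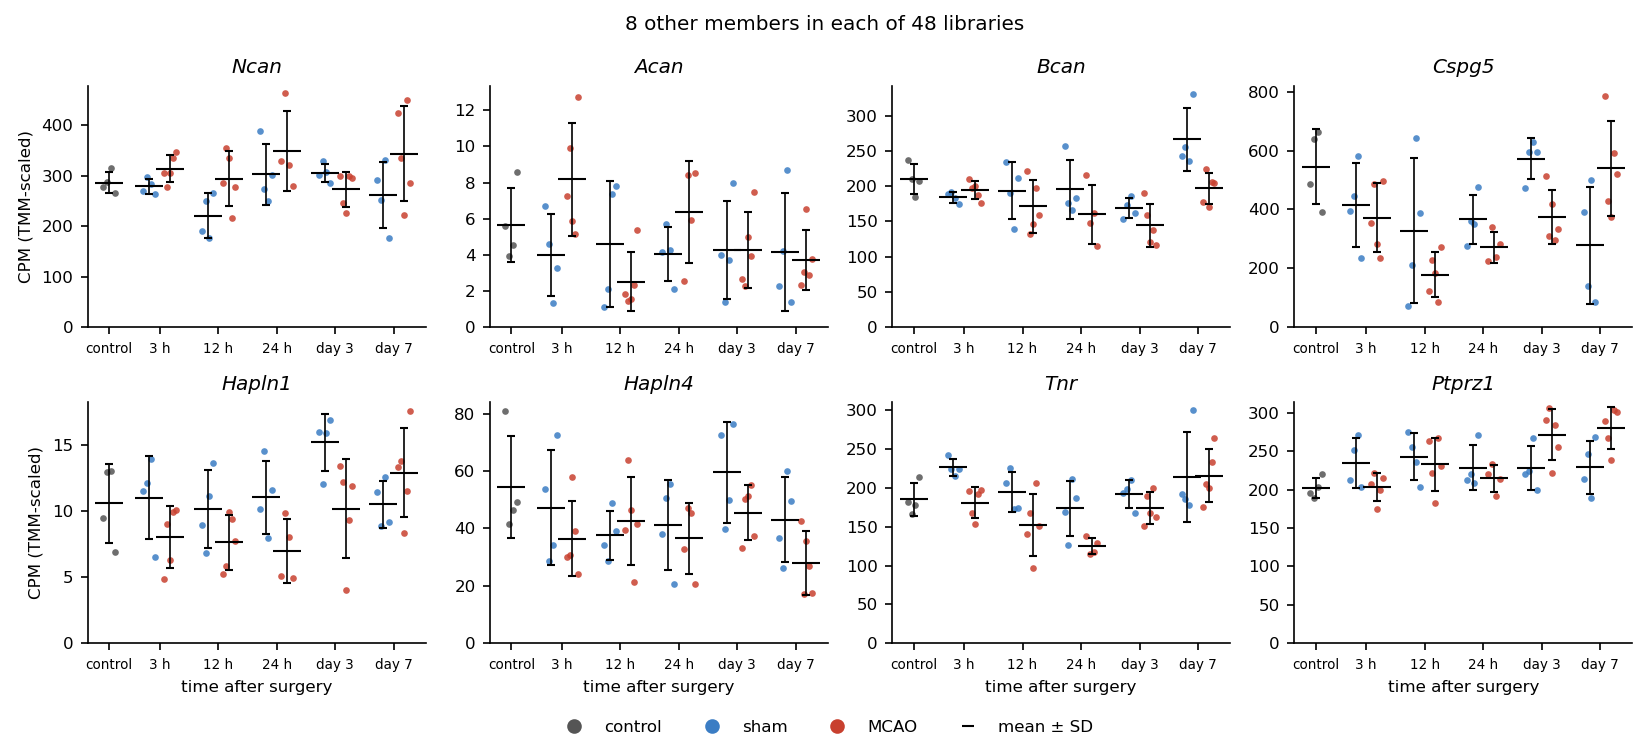
The 8 members other than Tnc and Vcan in CPM, scaled with TMM factors, in each of the 48 libraries by group and time, with mean ± SD in black. The groups overlap in most panels; Tnr at 3 h and Bcan at day 7 are the MCAO and sham groups that do not, and Cspg5 has the widest spread among the sham libraries of 12 h and day 7.

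Cspg5 encodes neuroglycan C, a membrane proteoglycan of neurons and glia. It was the member with the most counts and the one least alike within groups among those above 10 CPM, with 70.9, 211.2, 644.4 and 386.5 CPM in the sham libraries of 12 h and 391.4, 139.1, 499.3 and 84.9 CPM in those of day 7. At 12 h after MCAO it measured 124.2, 229.6, 182.6, 83.5 and 273.4 CPM, below all 4 control libraries (487.6, 638.6, 664.9 and 392.8 CPM). The decrease against control was −1.61 ± 0.37 on the log2 scale (95% interval −2.36 to −0.86, edgeR adjusted p = 0.00912) and was called. It was not called once any of 8 libraries of the 9 (each of the 4 control libraries, and MCAO replicates A to D) was left out, with values from −1.74 to −1.43 and adjusted p from 0.0105 to 0.0455. Against the sham libraries of 12 h, which contained its whole range, the difference was −0.88 (95% interval −1.63 to −0.14, edgeR adjusted p = 0.239). Later differences from sham went both ways and were not called. At day 3 Cspg5 measured 514.6, 308.2, 419.5, 297.4 and 332.3 CPM after MCAO against 474.0, 594.6, 628.3 and 597.3 CPM (−0.62, 95% interval −1.35 to 0.12). At day 7 it measured 784.7, 429.5, 373.6, 591.1 and 519.2 CPM after MCAO, against the sham values given above, of which 2 (replicates B and D) lay below all MCAO libraries (0.96, 95% interval 0.20 to 1.71, edgeR adjusted p = 0.102), and differed from control by −0.02 (95% interval −0.76 to 0.72).

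The spread of Cspg5 followed the strongest pattern of difference among libraries of the same group. The first component of the deviations of 9872 well expressed genes from their group means, computed without the members, held 19.97% of the within-group variance, and the deviations of Cspg5 had an r of 0.93 with it over the 48 libraries, which is a description. The values for the other members were between −0.54 (Tnr) and 0.42 (Ncan), and for Tnc −0.03 and Vcan 0.12. The libraries at its ends were sham 12 h replicates A and C, MCAO 12 h replicate D and sham day 7 replicate D. Without these 4 the decrease in Cspg5 at 12 h against control was −1.43 ± 0.29 (edgeR adjusted p = 0.00192). The 4 were picked after the data were seen, by a component that Cspg5 itself follows. Their removal lowers the spread of Cspg5, so this value does not make the call firmer. The part that library quality or dissection has in this component was not tested. The share of spike-in reads in the libraries at its low end was 5.37%, 5.44% and 5.37%, and 4.47% at its high end. It was 5.97% in MCAO day 3 replicate C and 5.46% in MCAO day 7 replicate C, which lay near the middle (loadings 0.0031 and −0.0196).

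**Figure D5:**
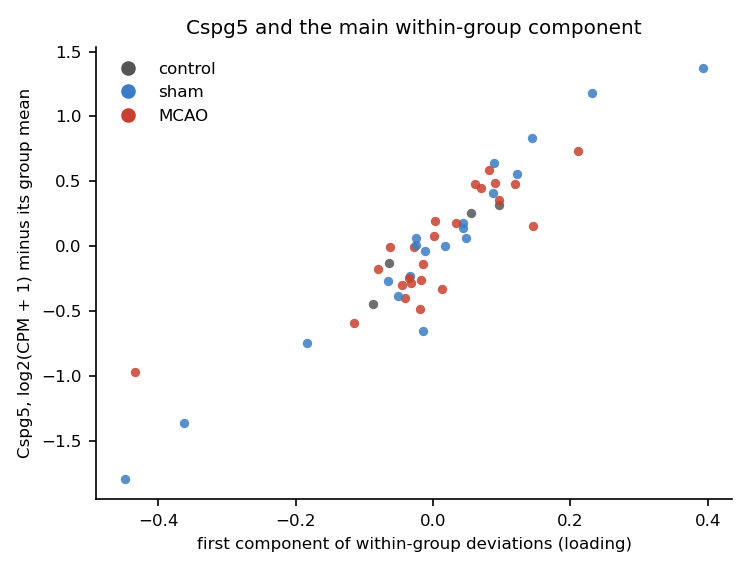
Cspg5 in each of the 48 libraries, as log2(CPM + 1) minus the mean of its group, against the loading of the library on the first component of the within-group deviations of 9872 other genes. The points rise from the 3 libraries at the lower left to sham 12 h replicate C at the right, with control, sham and MCAO libraries along the same line.

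Ptprz1 encodes a receptor phosphatase of glia whose secreted form is the proteoglycan phosphacan. It varied least of the members. At day 3 it measured 291.5, 306.8, 222.2, 284.2 and 255.6 CPM after MCAO, and at day 7 289.6, 267.2, 239.2, 304.2 and 301.9 CPM. All 10 of these libraries lay above the 4 control libraries (195.8, 189.5, 203.2 and 220.9 CPM). The differences from control were 0.43 ± 0.13 and 0.47 ± 0.13 on the log2 scale (edgeR adjusted p = 0.0329 and 0.0266), under the size required for a call, and those from sham were 0.25 (95% interval −0.0040 to 0.51) and 0.29 (0.03 to 0.55).

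The control group gives a second reference for the same MCAO libraries, which are thus not an independent set. Against it no member was called at 3 h or 24 h (0.13% and 0.28% of all genes), 1 at 12 h (Cspg5, against 0.856%), 1 at day 3 (Tnc, against 3.1%) and 1 at day 7 (Vcan, against 1.5%). Tnc at day 3 was higher by 3.89 ± 0.65 (95% interval 2.59 to 5.20, edgeR adjusted p = 5.96e-05). Vcan was higher by 1.02 ± 0.27 at day 3 (adjusted p = 0.0126, missing the threshold) and by 1.32 ± 0.27 at day 7 (adjusted p = 0.00201). Without the 2 MCAO libraries that stand apart Vcan was called at day 3. Without MCAO day 7 replicate C the day 7 difference was 0.96 ± 0.25 (adjusted p = 0.0374), no longer called.

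Sham surgery alone was compared with the intact cortex. By edgeR no member was called at any time, with 0% of all genes called at 3 h, 0.0351% at 12 h, 0.01% at 24 h, 0% at day 3 and 0% at day 7. At an unadjusted p under 0.05, 736, 731 and 1604 genes passed at 3 h, day 3 and day 7, and DESeq2 called 0, 1 and 0. The members at unadjusted p under 0.05 were 1 at 12 h (Ncan, −0.37) and 2 at day 7 (Cspg5, −0.97, and Bcan, 0.34). The interval of Tnc in sham against control was widest, −2.39 to 1.12 at day 7, since it rests on few counts.

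Whether the effect of MCAO over sham was larger late than early was tested directly, as the mean of the day 3 and day 7 effects minus the mean of the 3 h, 12 h and 24 h effects. No member was called, against 1.27% of all genes (254 genes; an unadjusted p under 0.05 was found for 4 members and 3555 of the 19970 genes, and DESeq2 called 505 genes with 1 member, Vcan, among them). The differences were 2.24 ± 0.61 for Tnc, 0.88 ± 0.24 for Vcan and 0.39 ± 0.12 for Ptprz1 (edgeR adjusted p = 0.0241, 0.0255 and 0.0452). For the other members they were between −0.39 (Hapln4) and 0.66 (Cspg5).

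The 4 lecticans lie beside the 4 Hapln genes in the genome (GRCm38, no annotated gene between). Vcan and Hapln1 are 43.7 kb apart on chromosome 13, Ncan and Hapln4 2.22 kb apart on chromosome 8, Bcan and Hapln2 21.5 kb apart on chromosome 3, and Acan and Hapln3 0.002 kb apart on chromosome 7, tail to tail. No Hapln gene was called against sham, so no pair could share a call there. At day 7 Vcan differed from sham by 1.07 and Hapln1 by 0.30. Hapln3 stood at 2.61 (95% interval 0.43 to 4.78, edgeR adjusted p = 0.124) where Acan stood at −0.16. Hapln3 rests on few counts, 17 over the 5 MCAO libraries and 2 over the 4 sham libraries, and its annotated end does not overlap that of Acan.

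For the enzymes of the chondroitin chain, calls are to be read beside the 4.02% of all genes called at day 3 and 3.5% at day 7. Of 12 synthesis genes 1 was called in any comparison with sham, Chpf, a subunit of the chain polymerase, at −0.61 on day 7 (not called without sham replicate B or D or MCAO replicate B, D or E), and the median of the list was −0.16 at day 3 and −0.11 at day 7. Of 9 tested genes for sulfation and epimerization none was called, with medians of 0.41 and 0.40 against 0.01 and 0.06 for all genes. Of the lysosomal enzymes of chain breakdown, 4 of 9 were higher at day 3 (median 0.79) and 3 at day 7 (median 0.63), among them Gusb (β-glucuronidase, 2.52 at day 3) and Hexa, a lysosomal glycosidase (1.28 at day 7). Without MCAO day 7 replicate C 1 gene remained called at that time, the list median was 0.25, and Hexa stood at 0.71 (edgeR adjusted p = 0.0496); Hexa at day 7 was also not called without sham replicate A or D. Microglia and macrophage markers, led by Cx3cr1, were called higher for 6 of 8 genes at day 3 and 4 at day 7 (3 without replicate C, where Cx3cr1 stood at 0.79 with an edgeR adjusted p of 0.0610), summing to 1532 ± 690 CPM after MCAO and 312 ± 47.6 CPM in sham mice at day 3 (SD, n = 5 and 4); their part in the lysosomal values was not tested.

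Among 17 proteases that cut lecticans and their inhibitors, 4 were higher at day 3 and 2 at day 7, with list medians of 1.79 and 1.45. Timp1, an inhibitor of matrix metalloproteinases, was at 76.9 ± 53.6 CPM after MCAO and 1.3 ± 0.6 CPM in sham mice at day 3 (SD, n = 5 and 4; log2 fold change 5.83), and was called at 12 h, 24 h and day 3. Mmp9, a gelatinase, was called at day 3 (3.04), with 2.7, 3.6, 79.9, 3.4 and 23.4 CPM after MCAO and 0.9 to 3.7 CPM in sham mice. Replicates C and E stood apart from the others. Without C the difference was 1.62 (edgeR adjusted p = 0.187), and the call was also lost without E or any 1 sham library. Mmp12, macrophage elastase, had 49 counts over the MCAO libraries of day 7 and 0 over the sham libraries, at least 15.4-fold higher when 3 counts are assumed for the sham group. Replicate C held 36 of these counts, and the 13 in the other 4 MCAO libraries give at least 5.01-fold. Mmp12 was not called without replicate C or without any 1 sham library. Adamts1, an aggrecanase, was called at 12 h, 24 h and day 3. At 24 h the Adamts1 call was lost without sham replicate D, and that of Timp1 without sham replicate A, C or D or MCAO replicate D. Without MCAO day 3 replicate A the list had 7 genes called higher at day 3, and without MCAO day 7 replicate C 1 at day 7 (Mmp14, 1.61, against 2.79 with it). At day 3 Mmp14 (1.79) lost its call, as Mmp9 did, without MCAO replicate C or E or any 1 sham library. Setting genes without a count in a group at their bound left both list medians as they were.

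Of 14 genes for hyaluronan synthesis and turnover, 2 were higher at day 3 and 1 at day 7, with list medians of 0.46 and 0.67. They were Cd44, the hyaluronan receptor (3.64 at day 3, called at day 7 too, and at 12 h except without sham replicate A or B or MCAO replicate E), and Hmmr, also a marker of dividing cells (4.21). Without MCAO day 3 replicate A they were 3, with Has2 added. Of 28 tested core proteins of other proteoglycans, 5 were higher and 1 lower at day 7 (median 0.81), with the small leucine-rich proteoglycans Bgn (2.68) and Dcn (2.43), the invariant chain Cd74 (3.18), Cd44 and Nrp1 (1.21) on the rising side and Spock1, a testican of neurons (−0.63), on the falling side. Of these 6 calls, 5 were lost without MCAO day 7 replicate C, and the same 5 without sham day 7 replicate D. Bgn measured 10.4, 23.9, 407.5, 41.7 and 48.2 CPM after MCAO against 11.4 to 19.2 CPM in sham mice. Without replicate C Cd44 alone was called (median of the list 0.70), and the edgeR estimates were 0.91 for Bgn, 1.44 for Dcn, 2.41 for Cd74, 0.40 for Nrp1 and −0.56 for Spock1. At day 3, where the median of this list was −0.01, 3 genes were higher, and 8 without MCAO replicate A. Cd74 stood at 4.08 at that time, and at 4.95 without sham replicate B. The remaining relatives, Hapln2, Hapln3, Tnxb and Tnn, had no call.

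Of 25 tested receptors and partners, 4 were called against sham at some time. Nptx2, a neuronal pentraxin of perineuronal nets, was higher at 3 h (2.45, not called without sham replicate A or D), and Itgb1, an integrin subunit that binds tenascin-C, at day 3 (1.33). The chain receptor Ptprd was lower at day 3 (−0.58) and Rtn4r at day 7 (−1.03), where it measured 76.5 ± 9.4 CPM after MCAO and 155.9 ± 49.6 CPM in sham mice (SD, n = 5 and 4). The Ptprd call was lost without sham replicate B or D or MCAO replicate C, D or E, and the Rtn4r call without sham replicate A or D or MCAO replicate C or D. Without MCAO day 3 replicate A 5 genes of the list were higher and 3 lower at that time. Of the neuronal markers 1 of 8, Snap25 (−0.67), fell at day 3, where the list summed to 11804, 9993, 7938, 7845 and 7988 CPM after MCAO and 11510 to 13114 CPM in sham mice; the Snap25 call was lost without sham replicate A or B or MCAO replicate C, D or E. Neuronal markers fell for 2 of 8 genes at day 7, Rbfox3 among them, with the list at 6363 to 10212 CPM against 11300 to 13352 CPM. The medians of the receptor and partner list were −0.02 at day 3 and 0.04 at day 7.

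The genes closest to each member in pattern were taken as those with the highest r of log2(CPM + 1) over the 48 libraries among 11738 genes (11739 for Acan) with a mean of at least 5 CPM, as a description. For Tnc they were Lmnb1 (0.81), S100a6 (0.80) and Plin2 (0.79), and for Vcan Sparc (0.80), Wipf1 (0.77) and Dap (0.77). Cspg5 was closest to Ccng2, S1pr1 and Ppp1cb (each 0.92), Tnr to Rtl8b, Pcnx3 and B4galnt1 (0.84, 0.84 and 0.83), Ptprz1 to Timp2 (0.79) and Bcan to Tuba4a (0.77). Ncan, Acan, Hapln1 and Hapln4 had no gene above 0.73, and no member was among the 3 closest genes of another.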

How the data were processed

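The authors deposited 1 table of raw counts per gene for each of 48 QuantSeq 3′ libraries. They trimmed reads with TrimmomaticSE, removed ribosomal and mitochondrial reads with SortMeRNA, aligned to GRCm38 and spike-in sequences with STAR 2.5.2b and counted over Gencode vM8 with htseq-count in union mode. The strand setting of the counting is not given in the sources used here, and their normalized matrix was not used. All samples had an RQN above 8. Libraries were grouped by their titles. Genes whose counts summed to above 10 were scaled with TMM factors and tested with the edgeR 4.0.16 quasi-likelihood test in R 4.3.3, in a single fit of the 11 groups (16 comparisons), where the study used DESeq2; calls need an adjusted p below 0.01 and a log2 fold change above 0.58 in size. The test was checked on simulated counts. The study describes its bulk samples as replicate mice, though no label ties a library to a mouse, so p-values measure the spread between libraries. The members, gene lists and comparisons were chosen with earlier results of these data known. Beside the members, the text names Hapln2 and Hapln3, the 3 largest rises and 3 largest falls of each pathway list among called genes, and the 3 genes closest in pattern to each member, except for items that are not reported here; Dcn, Nrp1, Adamts1, Mmp14, Has2 and the marker genes were named after their values were seen. Marker lists for thalamus, endothelium, granulocytes, astrocytes and oligodendrocytes were also summed: at day 3 after MCAO 1 of 6, 2 of 6, 2 of 5, 1 of 7 and 0 of 6 of their genes were called higher than in sham mice (1, 3, 3, 2 and 0 without MCAO replicate A, where Slc1a2 of the astrocyte list was called lower; both granulocyte calls, S100a8 and S100a9, were lost without MCAO replicate C). Symbols came from Gencode vM21 for 46488 of 46983 identifiers. Promoter letters came from RefSeq. Alternatives were DESeq2 1.42.0, its size factors, 2 other filters, spike-in scaling, fitting only the groups compared, a replicate block and leaving out libraries; 2 of the latter were added after seeing the data.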

Additional observations from a re-analysis of the deposited data

Results flagged for a closer look

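In 4 of 110 groups of member values, 1 library lay further from the others than a gap test at the 95% level allows; chance gives about 5.5. Vcan was at 70.8 CPM in MCAO day 7 replicate C, where the other 4 libraries held 25.7 to 31.7 CPM, and at 25.04 CPM in MCAO 3 h replicate B, where the others held 16.4 to 18.5 CPM. Acan was at 5.36 CPM in MCAO 12 h replicate E, with 1.46 to 2.35 CPM in the others, which are 3 to 9 counts per library. Tnr was at 300.6 CPM in sham day 7 replicate D, with 178 to 193 CPM in the others. That sham library also had the lowest Cspg5 of its group, 84.9 CPM, and the highest Bcan, 331.7 CPM.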

How the results depend on the processing

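Tnc at day 3 was called against sham and control in all alternatives, with 2.81 to 3.70 against sham when 1 library was left out. The count of 1 member called was otherwise unstable. At day 7 against sham it became 0 with the replicate block (Vcan 1.04, adjusted p = 0.0104), with only the groups compared (1.07, adjusted p = 0.0376), without the 2 MCAO libraries that stand apart (0.71) and without the 4 libraries at the ends of the within-group component (1.08), and 2, with Tnc added, without a filter and with DESeq2. Against control it became 0 at day 7 with spike-in scaling (Vcan 1.13), with only the groups compared (1.32) and without the 2 libraries that stand apart (0.97), and 1 at 24 h with only the groups compared (Cspg5, −1.01). At day 3 against control it became 2 with filterByExpr, without a filter, with DESeq2 and without the 4 libraries (Vcan added), 2 with spike-in scaling (Bcan added, −0.83) and 3 without the 2 libraries that stand apart (Vcan and Bcan added). The late minus early count became 1 without a filter (Tnc) and with DESeq2 (Vcan). Leaving out 1 library at a time gave 0 to 1 members at day 7 against sham and against control, at 12 h against control and in the late minus early difference, and 1 to 3 at day 3 against control. The Vcan call at day 7 against sham was lost without any 1 of the 4 sham libraries (adjusted p from 0.0142 to 0.0278) and without MCAO replicate C; against control it was lost without control replicate A or D or MCAO replicate C. The other member counts stayed at 0 or 1 as reported. Of 3160 single fold changes of members in the alternatives, 3122 kept their side of the threshold and none of those called changed direction; 106 uncalled ones changed sign.

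Over all genes, counts against sham ranged between settings from 14 to 58 at 3 h, 2 to 179 at 12 h, 16 to 65 at 24 h, 339 to 1508 at day 3 and 274 to 1096 at day 7 (22, 82, 18, 802 and 698 as reported). Spike-in scaling moved the median of all genes at day 3 from 0.01 to −0.22 against sham and from 0.02 to −0.28 against control, and called 463 higher and 131 lower genes at day 3 against sham, where TMM gave 750 and 52. The replicate letters did not pair samples: same-letter deviations correlated from −0.44 to 0.57 with a median of 0.0056, and the replicate block changed no other member call. Acan, Hapln1 and Tnc rest on few counts, which limits what could be detected.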
